A study of Mus musculus with 21 samples.

Results

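Forebrain RNA from 21 mice was grouped by the human APOE allele the mice carried. The 7 mice of the APOE2 lines (E2H and PS/E2H) were set against the 14 mice of the APOE3 and APOE4 lines together, with the tau transgene as a covariate, and mice were assigned to an arm by their group label alone. Parental mice, 3 for each allele (E2H for APOE2, E3H for APOE3, E4H for APOE4), were 9 to 10 months old and carried the human allele in place of mouse Apoe on both chromosomes (targeted replacement, C57BL6 background). PS19 mice, 4 for each allele (PS/E2H, PS/E3H, PS/E4H), were also heterozygous for a human tau transgene with the P301S mutation and were taken once paralysed in the hindlimbs, at ages not given for single mice. PS19 mice came from a B6/C3H background and were crossed with an APOE homozygote, and the offspring were crossed again with the same APOE line. All 21 mice therefore shared homozygous human APOE, and the comparison holds no mouse with its own Apoe gene. Each APOE line was kept as its own breeding stock, so the APOE2 allele and any other difference between the stocks cannot be told apart.

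Libraries held 59265459 to 75932183 counts with a median of 63751715, and all 27 pairs of mice within a group differed beyond sampling noise. Neuronal, glial and striatal markers such as Snap25, Gfap, Mbp and Drd1 were present in every mouse. Ddx3y, a gene of the Y chromosome, exceeded 10 CPM (counts scaled to library size) in 4 libraries (E4H replicate 3, PS/E2H replicate 2, PS/E4H replicates 1 and 4), and Xist, which marks an inactive X chromosome, exceeded 100 CPM in the other 17. The methods describe the reverse, 4 female mice (1 E4H, 1 PS/E2H and 2 PS/E4H) among males. The arms held 1 of 7 and 3 of 14 such libraries, and where the count of called genes or of a gene list changed without them, both values are given. The human APOE and tau transcripts were not analysed here. The mouse Apoe entry had 11.99 to 16.3 CPM in the APOE2 arm and 9.83 to 16.5 CPM in the other arm, and Mapt, the mouse tau gene, had 425 to 504 against 420 to 505 CPM.

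ApoE is the main lipid carrier of the brain, made largely by astrocytes and by activated microglia, and its human forms differ in how they bind lipoprotein receptors and lipid. CCL21 is a chemokine that draws T cells and dendritic cells through the receptor CCR7, and the mouse genome carries several near-identical Ccl21 genes side by side on chromosome 4, whose products are known as the Ser and Leu forms. NNT sits in the inner mitochondrial membrane and uses the proton gradient to make NADPH, which feeds the glutathione and thioredoxin systems, and its gene is known to vary among C57BL6 substrains.

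Among 22863 genes tested with edgeR's quasi-likelihood test, 1070 (4.68%) had a Benjamini-Hochberg adjusted p under 0.05 and are said to have passed. Of these, 704 (3.08%) were higher and 366 (1.60%) lower in the APOE2 lines. At a fold of at least 2 as well, 67 genes (0.293%) were called, 25 higher (0.109%) and 42 lower (0.184%). Without the 4 libraries with Ddx3y reads 44 genes were called, all 44 among the 67, and without E2H replicate 2 and PS/E2H replicate 2, whose short genes were high, 47 were called, of which 43 were among the 67. Both settings were chosen after the data were seen. Leaving out PS/E2H replicate 3 gave 128 called genes. The called genes clustered by position. A run on chromosome 4 held 19, chromosome 7 held 17, 4 entries had no position in the annotation used, and 27 lay elsewhere.

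The 5 Ccl21 entries lie within the chromosome 4 run and carry its largest protein-coding differences. Their coding sequences are 402 bases long in 4 exons. Ccl21b (GRCm38 chr4:42255767-42256432, plus strand), Gm21541 (chr4:41903610-41904743, the position of Ccl21d), Gm13304 (chr4:42114817-42115917) and Gm10591 (chr4:42612195-42612860) have the same coding sequence, while Ccl21a (chr4:42772860-42773993, minus strand) differs from it by the substitutions T84A in codon 28 and C194T in codon 65, with the base of Ccl21a first and positions counted from 1 at the first base of the start codon. Coding positions 60 to 218 are shown because they hold both coding bases, in capitals, by which Ccl21a differs from the other copies. A read within the coding sequence cannot tell those other copies from one another. The sequences are exonic and come from the GENCODE M21 transcripts.
Ccl21a: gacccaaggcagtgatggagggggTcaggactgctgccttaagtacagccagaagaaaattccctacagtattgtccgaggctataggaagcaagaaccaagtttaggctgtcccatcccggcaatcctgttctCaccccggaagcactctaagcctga
Ccl21b: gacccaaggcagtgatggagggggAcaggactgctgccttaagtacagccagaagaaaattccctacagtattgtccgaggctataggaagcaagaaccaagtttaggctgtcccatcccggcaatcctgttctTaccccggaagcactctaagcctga

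Ccl21 RNA was lower in every APOE2 mouse than in any APOE3 or APOE4 mouse. The sum of the 5 entries was 0.650, 0.495 and 0.2065 CPM in the 3 E2H mice and 0.576, 0.752, 0.406 and 0.4215 CPM in the 4 PS/E2H mice. In the other arm it ranged from 6.50 CPM, in PS/E3H replicate 2, to 22.6 CPM with a median of 17.7 CPM. The arms did not overlap. The means were 0.501 ± 0.179 CPM (SD, n = 7) and 17.3 ± 4.62 CPM (SD, n = 14), a 34.5-fold difference. By group the sum was 19.7 ± 3.56 CPM in E3H, 15.75 ± 0.590 CPM in E4H (n = 3 each), 14.9 ± 7.06 CPM in PS/E3H and 18.95 ± 3.85 CPM in PS/E4H mice (SD, n = 4 each). The 4 groups of the other arm overlapped one another.

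Single entries showed the same order. Ccl21b had 0.0275 to 0.154 CPM in the APOE2 arm and 1.42 to 7.39 CPM in the other arm, a log2 difference of -5.49 (SE 0.331, adjusted p = 6.47e-11). The log2 difference was -5.68 for Gm10591, -5.05 for Gm13304 and -4.97 for Gm21541, each with arms that did not overlap. Ccl21a was the exception in spread. It had 0 to 0.239 CPM against 0.0478 to 1.02 CPM and a log2 difference of -2.73 (SE 0.548, adjusted p = 0.0108), and PS/E3H replicate 2 lay inside the APOE2 range. Every 50-base window of the Ccl21b exons occurs in another gene, as do 71.6% of those of Ccl21a, so how reads were divided among the copies is uncertain and the sum is the firmer value. Ccr7, the receptor, was low in both arms (median 0.185 and 0.115 CPM, adjusted p = 0.783).

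**Figure D1:**
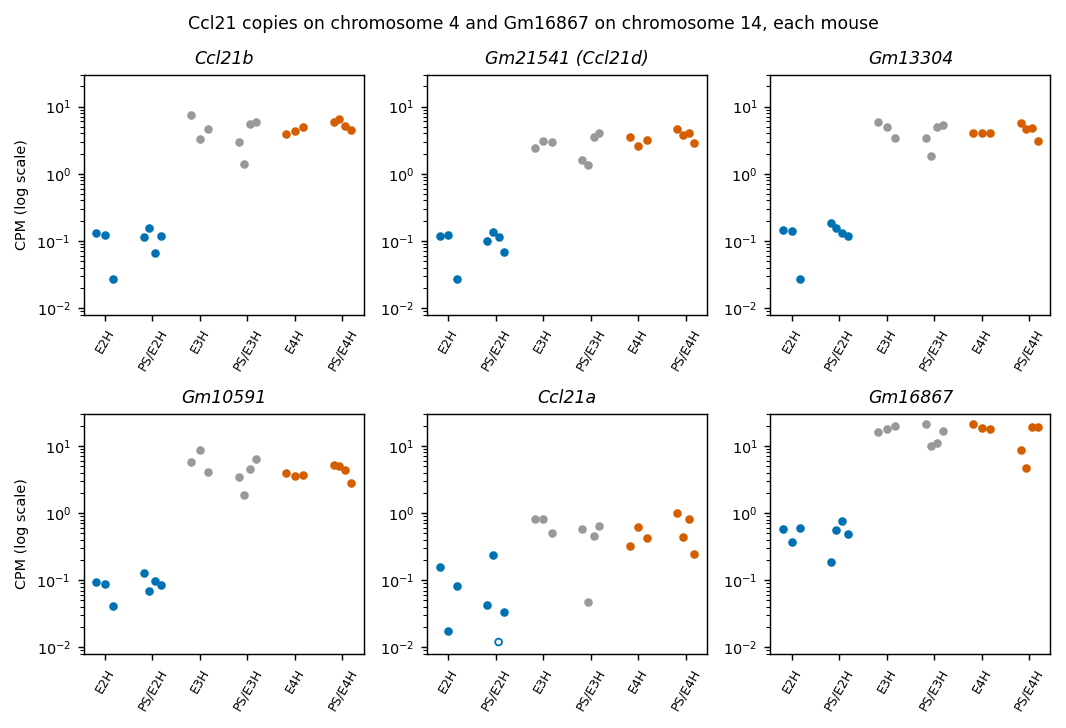
CPM on a log axis in each of the 21 mice for the 5 Ccl21 entries and for Gm16867 on chromosome 14. Blue points are the APOE2 groups, grey the APOE3 groups and orange the APOE4 groups, and the open circle is the mouse with 0 Ccl21a counts. All blue points lie below all others except in the Ccl21a panel.

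The rest of the chromosome 4 run consisted of pseudogenes, antisense transcripts and predicted genes around the Ccl21 copies, between positions 41809083 and 42773993. All 19 called genes of the run were lower in the APOE2 lines, and 12 of them had arms that did not overlap. Arms were apart for 47 genes (0.206%) among all tested. They were apart for 31 of all 67 called genes, which were chosen for a difference between these arms. Gm17081, an unprocessed pseudogene, had 0.152 to 0.239 CPM in APOE2 mice against 1.20 to 8.49 CPM (log2 difference -4.34). Gm13301, another pseudogene, had 0.0530 to 0.130 CPM against 0.591 to 3.33 CPM (log2 difference -3.95). The differences of the predicted genes Gm21093 and Gm2163 were smaller, at -1.11 and -1.24, and their arms overlapped. In a window ending at position 42856771, 38 genes were tested, 4 more passed and were lower at less than 2-fold, and 15 did not pass. The 4 include Fam205a2, Fam205a3 and Fam205a4 at log2 differences of -0.88, -0.87 and -0.88, which are named after their values were seen. Like the Ccl21 copies, the run is repetitive: 62.2% to 100% of the 50-base exon windows of its genes (median 92.5%) occur in another gene. The median was 3.53% for the other 44 called genes with exon sequence. Of these, 5 on chromosome 7 and 10 elsewhere had over 50% of their windows in another gene. Of the 19 calls, 17 were made whichever single mouse was left out, 18 were made without the 4 libraries with Ddx3y reads, and 9 were made in PS19 mice alone.

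Nnt was higher in the APOE2 lines and was counted under a pair of overlapping entries on the minus strand of chromosome 13 (ENSMUSG00000025453 at 119335448-119408997 and ENSMUSG00000116207 at 119335528-119408952). Summed over both, Nnt was 36.4, 37.6 and 38.6 CPM in E2H mice and 35.6, 30.9, 36.4 and 35.5 CPM in PS/E2H mice. The other arm ranged from 18.01 to 26.4 CPM with a median of 20.96 CPM. The arms did not overlap. The means were 35.8 ± 2.46 CPM (SD, n = 7) and 20.95 ± 2.585 CPM (SD, n = 14), a 1.71-fold difference. Group means of the other arm were close, from 19.6 ± 1.999 CPM in E4H (n = 3) to 21.7 ± 2.82 CPM in PS/E4H mice (SD, n = 4).

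The division between the Nnt entries also differed. In the APOE2 arm all reads fell on the first entry, and the second had 0 counts in all 7 mice. In the other arm the second entry took between 0% and 73.6% of the Nnt counts (median 31.1%), and it was at 0 counts in 2 of the 14 mice. Its mean there was 7.13 CPM, at least 152-fold above the level of 3 counts per library. The first entry alone had 30.9 to 38.6 CPM against 5.38 to 21.6 CPM (log2 difference 1.37, SE 0.220, adjusted p = 0.000946). All of the 50-base windows of the second entry occur in the first, so the split within a mouse is uncertain and the 1.71-fold sum is the firmer value.

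**Figure D2:**
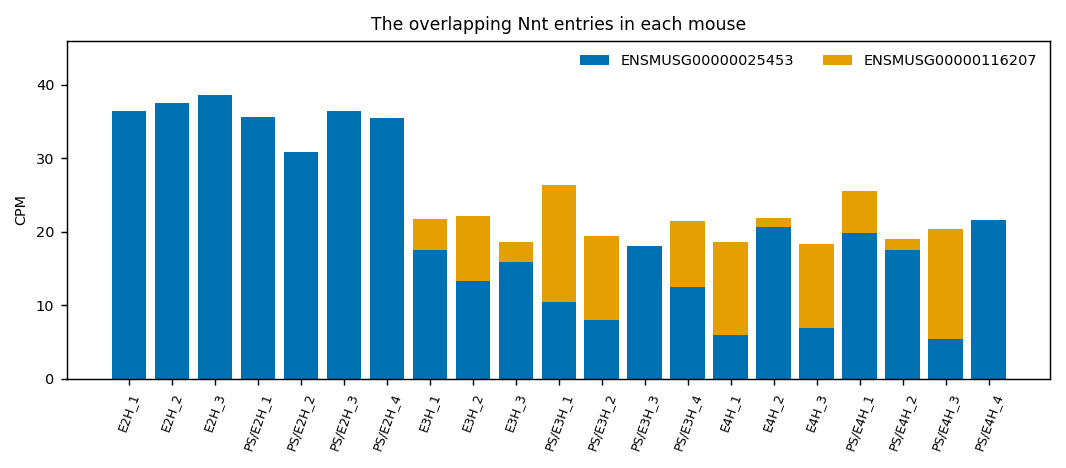
CPM of both Nnt entries stacked for each of the 21 mice, APOE2 mice at the left. The 7 APOE2 bars reach 30.9 to 38.6 CPM with no second entry, and the other 14 reach 18.01 to 26.4 CPM with shares of the second entry from 0% to 73.6%.

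Around Nnt, 25 entries of mitochondrial NADPH supply and redox defence were tested, of which 5 passed higher and 2 lower with the Nnt entries counted once each way, against 3.08% and 1.60% of all genes. The median log2 difference was 0.0455, and -0.00268 for all genes. Msrb2, a mitochondrial methionine sulfoxide reductase, had 17.7 to 22.2 CPM against 14.9 to 19.97 CPM (log2 difference 0.27, adjusted p = 0.0194). Prdx5 and Gpx4, which reduce peroxides, were 0.32 and 0.29 higher on the log2 scale, and Sod1, the cytosolic superoxide dismutase, 0.25. Aldh1l2, which makes NADPH from folate in mitochondria, was lower, with 1.71 to 4.89 CPM against 2.85 to 8.05 CPM (log2 difference -0.77, adjusted p = 0.0207). The arms overlapped for each of these genes apart from Nnt. The list held 1 higher and 1 lower gene without the 4 libraries with Ddx3y reads, and also without E2H replicate 2 and PS/E2H replicate 2. In PS19 mice alone 0 passed in either direction.

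A second pair of lower entries lay on chromosome 14. Gm16867, a predicted protein-coding gene at 69363504-69503362, had 0.187 to 0.763 CPM with a median of 0.564 CPM in the APOE2 arm and 4.71 to 21.2 CPM with a median of 17.7 CPM in the other arm (log2 difference -4.95, SE 0.295, adjusted p = 6.33e-11). Gm27177, at 69582164-69683286, had 0.371 to 0.989 CPM against 5.45 to 16.1 CPM (log2 difference -4.30). Neither had overlapping arms. Gm27177 is annotated as antisense and shares all of its 50-base windows with Gm16867. Entpd4 and Entpd4b, near-identical neighbours that encode nucleotide-hydrolysing enzymes of the secretory pathway, passed at less than 2-fold. Their log2 differences were -0.74 and -0.65, and they are named after their values were seen.

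Chromosome 7, which carries Apoe at position 19696109, held 17 called genes, 13 higher and 4 lower in the APOE2 lines. They began between 12.7 Mb before and 10.2 Mb after the start of Apoe. In the first 10 Mb of the chromosome 6 of 120 tested genes were called, in the next 10 Mb 8 of 139, in the 10 Mb after that 3 of 183, and beyond 30 Mb 0. The share that passed was 12.5%, 20.1%, 10.9% and 10.2% in the first 4 bins of 10 Mb and between 2.33% and 3% beyond 40 Mb. Over all genes tested 4.68% passed and 0.293% were called. The calls of chromosome 7 may not all be separate. In the first 10 Mb, Gm45351, Gm20482 and 2810047C21Rik1 have 88.4%, 85.6% and 100% of their exon windows in another gene. Each of them shares windows with the others. Gm18190, inside the Gm45844 span, has 52.9%, and Gm5586, in the next 10 Mb, has 61.5%. How reads were divided among such copies is uncertain. The arms did not overlap for 12 of the 17, which were chosen for a difference between these arms, against 0.206% of all genes tested.

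The higher genes of chromosome 7 included Pglyrp1, C5ar2 and Lgals4. Pglyrp1, a secreted protein that binds bacterial peptidoglycan, had 12.2, 5.18 and 4.31 CPM in E2H mice and 5.11, 5.72, 4.64 and 11.7 CPM in PS/E2H mice, against 1.09 to 2.31 CPM with a median of 1.55 CPM in the other arm. Every APOE2 mouse lay above every other mouse, and E2H replicate 1 and PS/E2H replicate 4 were the high ones within the APOE2 arm. The log2 difference was 2.07 (SE 0.190, adjusted p = 1.66e-07). C5ar2, the second receptor for complement fragment C5a, had 0.406 to 1.17 CPM against 0 to 0.202 CPM (log2 difference 2.64, SE 0.430, adjusted p = 0.0012). Lgals4, a galectin, had 1.15 to 3.25 CPM against 0.327 to 0.976 CPM (log2 difference 1.55, adjusted p = 1.4e-05). Again the arms were apart for both genes.

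Other chromosome 7 genes have other roles or none assigned. Ccdc61, a centrosomal protein gene beside Pglyrp1 on the other strand, had 5.51 to 8.13 CPM against 2.10 to 3.59 CPM (log2 difference 1.10, SE 0.0969, adjusted p = 7.87e-08). Nanos2, an RNA-binding protein of germ cells, was low in both arms, with 0.531 to 1.38 CPM against 0.0647 to 0.518 CPM (log2 difference 1.34). The arms were apart for both. Gm45844, a predicted gene, had 3.23 to 4.999 CPM against 0.339 to 1.26 CPM (log2 difference 2.74), and the noncoding 9330104G04Rik had 5.24 to 6.52 CPM against 0.0570 to 1.36 CPM (log2 difference 2.56). In Gm18190, a pseudogene inside the Gm45844 span and on the same strand, no mouse of the other arm exceeded 3 counts. The APOE2 mean was at least 5.72-fold above that level. Of the windows of Gm45844, 42.7% occur in another gene.

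Among the lower genes of chromosome 7, Gm45104, an unclassified transcript at 18396516-18400865, had 0.222 to 1.36 CPM against 6.28 to 11.9 CPM (log2 difference -3.82, SE 0.218, adjusted p = 4.02e-11). Zfp264, annotated as a transcribed pseudogene of a zinc finger gene, had 0 to 0.173 CPM against 0.377 to 2.25 CPM (log2 difference -3.96). Neither gene had overlapping arms. Well expressed genes of the same region differed by less than 2-fold and are named after their values were seen. Zfp14, a zinc finger gene, was 11.5 ± 1.40 CPM against 20.7 ± 2.41 CPM (log2 difference -0.85, adjusted p = 1.45e-09). Mrps12, of the mitochondrial ribosome, was 24.6 ± 4.81 against 14.4 ± 1.24 CPM (0.77), Ech1, of fatty acid oxidation, 45.4 ± 5.77 against 30.6 ± 3.74 CPM (0.58), and Ube2m, a NEDD8-conjugating enzyme, 128 ± 20.9 against 89.0 ± 6.90 CPM (SD, n = 7 and 14; log2 difference 0.53).

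**Figure D3:**
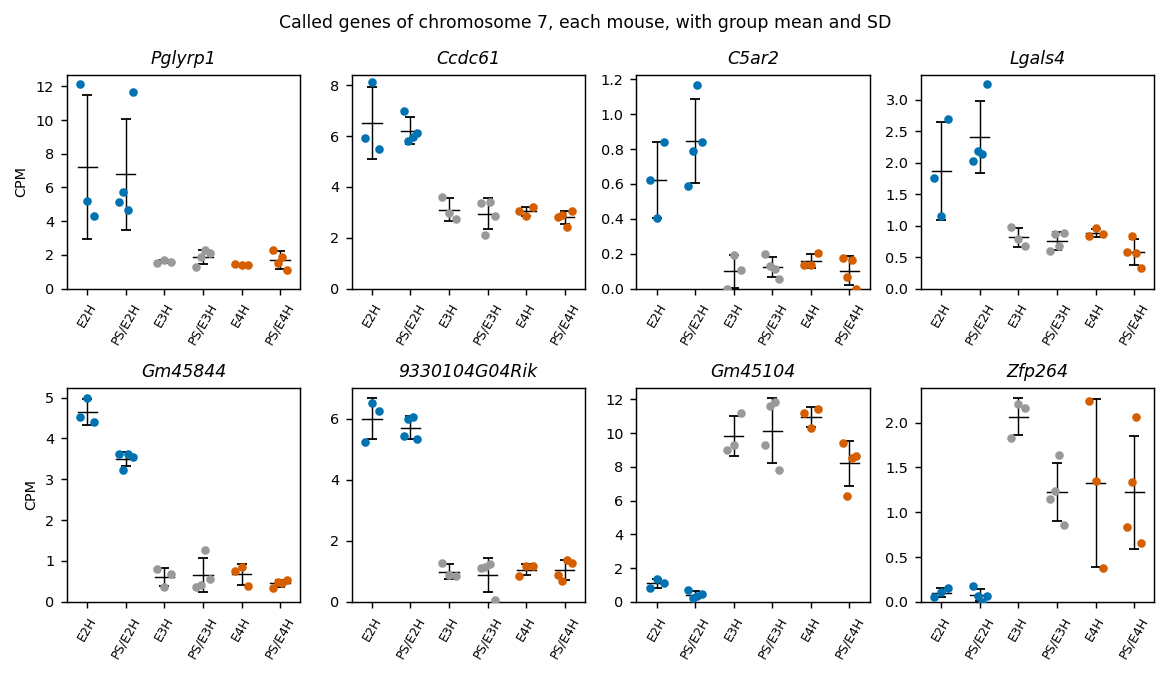
CPM of 8 called genes of chromosome 7 in each mouse, with the mean (horizontal line) and SD (whiskers) of each of the 6 groups. Blue is APOE2, grey APOE3 and orange APOE4. In all 8 panels the 7 APOE2 mice lie on one side of the other 14.

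The other 27 called genes with a position, also chosen for a difference between the arms, were spread over the genome. Arms did not overlap for 4 of them, against 0.206% of all genes tested. Besides Nnt and the chromosome 14 pair these included Mid1 on the X chromosome, a microtubule-associated ubiquitin ligase, with 5.86 to 21.1 CPM (median 10.4 CPM) in the APOE2 arm against 1.59 to 5.10 CPM (median 2.49 CPM; log2 difference 2.12, SE 0.204, adjusted p = 3.47e-07). Its lowest APOE2 value was that of PS/E2H replicate 2, the APOE2 library with Ddx3y reads. Without the 4 libraries with Ddx3y reads the log2 difference of Mid1 was 2.16. Gm21742 on the Y chromosome, 96.6% of whose windows occur in Mid1 and its pseudogene Mid1-ps1, was also called higher (log2 difference 1.73, adjusted p = 0.0491) with overlapping arms, and it kept the call in 1 of the 21 omissions of a single mouse.

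Of the named protein-coding genes that were lower, Plcxd3, a phospholipase-like gene, had 0.477 to 1.72 CPM against 1.37 to 3.57 CPM (log2 difference -1.14, adjusted p = 0.0158). Dnah6, a dynein of cilia, had 1.28 to 3.30 CPM against 1.60 to 8.83 CPM (-1.31, adjusted p = 0.0164). Chrm5, a muscarinic acetylcholine receptor, and Ube2c, an enzyme of mitotic protein breakdown, had log2 differences of -1.04 and -1.05. The arms overlapped for these 4 genes, which were called in 20, 19, 15 and 10 of the 21 omissions of a single mouse. For Dnah6 the difference was -0.71 against APOE3 (adjusted p = 0.0735) and -1.74 against APOE4 (adjusted p = 9.57e-05).

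For some calls 1 to 3 mice set the mean. Rps3a3, Rps3a2 and Gm5586, processed copies of the ribosomal protein gene Rps3a1 on chromosomes 13, 14 and 7, were high in the same pair of mice, PS/E2H replicates 1 and 4. There Rps3a3 was 53.9 and 53.2 CPM, and 0.991 to 2.19 CPM in the other 5 APOE2 mice against 0.720 to 1.90 CPM in the other arm. Rps3a2 was 89.6 and 92.1 CPM in those mice, and Gm5586 8.71 and 9.36 CPM. Gm8210 was 38.9 CPM in PS/E2H replicate 2 alone, and Gm12892, a copy of the creatine kinase gene Ckb, 13.2 and 14.01 CPM in PS/E2H replicates 3 and 4. In the other direction Alb, the albumin gene, ranged from 0.199 to 7.35 CPM in the parental mice of the other arm and was at 0 counts in 6 of the 7 APOE2 mice. In the PS19 mice of the other arm Alb was above 0 in 1 of 8.

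The parental and PS19 mice share no animal, so the comparison was also made within each. Among 21708 genes tested in parental mice, 267 (1.23%) passed and 58 (0.267%) were called, and among 21086 genes in PS19 mice 40 (0.190%) passed and 29 (0.138%) were called. Of the 58 genes called in parental mice, 53 had the same direction in PS19 mice and 22 were called there too. Of the 28 genes called in PS19 mice and tested in both, 27 had the same direction in parental mice. The 58 became 94 without E2H replicate 3, and the 29 became 77 without PS/E2H replicate 3. Ccl21b differed by -5.65 in parental and -5.38 in PS19 mice on the log2 scale, Pglyrp1 by 2.26 and 1.92, Gm45104 by -3.25 and -4.38, and Mid1 by 2.62 and 1.71, with adjusted p under 0.05 in both. The first Nnt entry differed by 1.49 (adjusted p = 0.0427) and 1.29 (adjusted p = 0.109).

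The 67 called genes were chosen in the fit of parental and PS19 mice together, so a shared sign is in part built into that choice. By place, 18 of the 19 called genes of the chromosome 4 run were tested in both and all 18 had the same sign. So did 15 of 15 on chromosome 7 and 23 of 24 elsewhere. The exception was Rps3a3, at -0.20 in parental and 4.42 in PS19 mice. A test of the difference itself, the interaction of the APOE2 arm with the tau transgene, passed for 0 of 22863 genes (0%). At an unadjusted p under 0.05 there were 2633, and DESeq2 passed 90. The smallest adjusted p among the 67 called genes was 0.258. A p that misses the threshold does not show that the arms differ alike in both. The interaction passed for 1 gene without E2H replicate 2, PS/E2H replicate 3 or PS/E3H replicate 1.

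**Figure D4:**
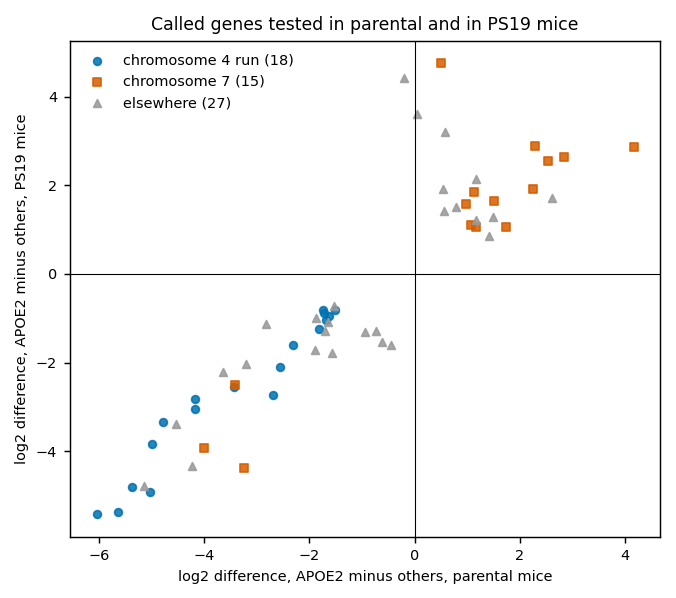
Log2 difference between the arms in parental mice (horizontal) and in PS19 mice (vertical) for 60 called genes tested in both. Circles are the chromosome 4 run (18 genes), squares chromosome 7 (15) and triangles all others (27, including the 4 entries without a position), and genes with no count above 3 in one arm are left out. Points lie in the lower left or upper right quadrant except Rps3a3. The genes were chosen in the fit of parental and PS19 mice together, so a shared sign is in part built in.

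The lines pooled as the other arm were then separated in a fit with 3 lines. Both comparisons use the same 7 APOE2 mice. Against APOE3, 757 genes (3.31%) passed and 72 (0.315%) were called, and against APOE4 145 (0.634%) passed and 59 (0.258%) were called. Of the 67 genes called against both lines together, 39 passed against each line. The log2 difference of Ccl21b was -5.40 against APOE3 and -5.58 against APOE4. That of Pglyrp1 was 1.99 and 2.15, that of Mid1 1.89 and 2.40, and that of the first Nnt entry 1.39 and 1.36. APOE4 against APOE3 passed for 28 genes (0.122%), and 0 of the 67 were among them.

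Some genes named or listed in the study's comparisons separated APOE4 from APOE3. Serpina3n, a protease inhibitor of reactive astrocytes, was lower in APOE2 than in APOE4 mice (log2 difference -1.87, adjusted p = 0.000166) and differed by -0.11 from APOE3 (adjusted p = 0.856). Against both lines together its difference was -1.22 (adjusted p = 0.0673). Dctd, of deoxynucleotide metabolism, was 1.14 higher against APOE4 and 0.06 against APOE3. Eps8l1, a signalling adaptor, was 2.39 higher against APOE3 and 0.04 against APOE4. For these genes APOE4 differed from APOE3, with log2 differences of 1.76, -1.08 and 2.35. Capn11, a cysteine protease, was 3.41 higher in E2H than in E3H and E4H mice (adjusted p = 0.000674) and differed by -2.49 in PS19 mice (adjusted p = 0.264, interaction adjusted p = 0.258).

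Below 2-fold, the passing genes were many and the differences small. Of the 704 higher genes 651 differed by less than 1.5-fold, and of the 366 lower genes 283. The medians of their absolute log2 differences were 0.274 and 0.290. In the fit with 3 lines, 372 of the 704 higher genes passed against APOE3 and 55 against APOE4. Of the 366 lower genes 179 and 63 did. The genes also differed in length. The median exon length was 2343 bases for higher and 7727 bases for lower genes, and 3346 bases for all tested genes. With genes divided by exon length into 3 classes of equal size, the median log2 difference was 0.0683 in the shortest, 0.0268 in the middle and -0.0643 in the longest class. The mean level of the shortest class minus that of the longest ran from -0.0483 to 0.145 on the log2 scale (median 0.0306) in APOE2 libraries and from -0.158 to 0.0543 (median -0.0167) in the others. E2H replicate 2 and PS/E2H replicate 2 were the high ones, at 0.133 and 0.145, and the former also had 10.9% of its counts on mitochondrial genes, against 7.34% to 9.25% in the other arm.

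Short genes of the respiratory chain and the ribosome made up part of this set. Oxidative phosphorylation is run by complexes whose subunits are encoded mostly in the nucleus and in part by the mitochondrial genome. Of 76 nuclear-encoded members tested, 51 (67.1%) passed higher and 0 lower, with a median log2 difference of 0.276, against 3.08% higher among all genes. By complex, 25 of 37 genes of complex I passed, 1 of 4 of complex II, 6 of 9 of complex III, 10 of 10 of complex IV and 9 of 15 of complex V. Ndufa3, of complex I, had 28.6 to 47.9 CPM against 16.2 to 35.2 CPM (log2 difference 0.57, adjusted p = 0.00797), and it lies on chromosome 7. Cox6a1, of complex IV, had 171 to 300 CPM against 151 to 203 CPM (0.38, adjusted p = 0.0153), and Ndufb9 111 to 184 against 89.4 to 132 CPM (0.36). The arms overlapped for each. Of the 13 members encoded by the mitochondrial genome 0 passed, with a median of 0.0551. Of 79 cytosolic ribosomal protein genes 21 passed higher and 0 lower, with a median of 0.260. Rpl39 and Rps29, of the large and small subunit, were 0.48 and 0.56 higher. In the fit with 3 lines, 44 of the nuclear-encoded members passed higher against APOE3 (median 0.326) and 0 against APOE4 (median 0.215). For the ribosomal protein genes these counts were 32 (median 0.335) and 0 (median 0.192). Among all 22863 genes 503 passed higher against APOE3 and 74 against APOE4.

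These counts varied with the libraries used. Leaving out 1 mouse moved the 51 by over 1.5 times in 14 of 21 omissions and the 21 in 17. The 51 became 2 without E2H replicate 2 and 2 without PS/E2H replicate 2, and 0 without both (median 0.155). It was 0 without the 4 libraries with Ddx3y reads (median 0.257) and 0 with the short-minus-long level as a covariate (median 0.0890), alternatives that were chosen after the data were seen. Leaving out PS/E2H replicate 3 raised it to 70. Within parental mice 25 passed higher (median 0.426), against 0.875% of all genes, and within PS19 mice 0 (median 0.161), against 0.0854%. The 21 ribosomal protein genes became 0, 1 and 0 without E2H replicate 2, without PS/E2H replicate 2 and without both, 55 without PS/E2H replicate 3, and 0 under the other pair of settings. All 1070 passing genes became 145 and 170 without the first and the second of those libraries and 2806 without PS/E2H replicate 3, and 85 without the 4 libraries with Ddx3y reads. The part of the short-minus-long level in the differences was not tested beyond these values. Ccl21b, Pglyrp1, Mid1, C5ar2 and the first Nnt entry passed in each of the 21 omissions of a single mouse. Without both libraries, without the 4 with Ddx3y reads and with the covariate, the log2 difference ran from -5.67 to -5.57 for Ccl21b, from 2.10 to 2.23 for Pglyrp1, from 2.16 to 2.35 for Mid1, from 2.65 to 3.03 for C5ar2 and from 1.40 to 1.47 for the first Nnt entry, and each of these genes passed.

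**Figure D5:**
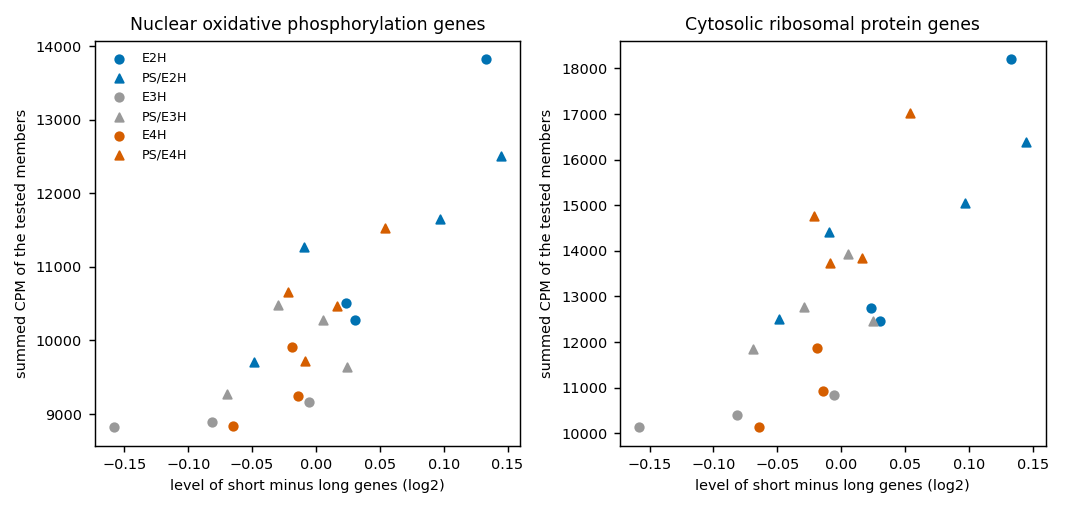
Summed CPM of 76 nuclear-encoded oxidative phosphorylation genes (left) and 79 cytosolic ribosomal protein genes (right) in each mouse, against the mean log2 level of short minus long genes in the same library. Circles are parental and triangles PS19 mice, with blue for APOE2, grey for APOE3 and orange for APOE4. The highest blue points, E2H replicate 2 and PS/E2H replicate 2, are those with short-minus-long levels of 0.133 and 0.145.

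The lists of other pathways are read against 3.08% of all genes passing higher and 1.60% lower. Of 30 chemokine genes 1 was higher and 3 lower. The 3 were Ccl21a, Ccl21b and Gm21541, and the higher was Ccl17, a ligand of CCR4, with 0.332 to 1.64 CPM against 0.299 to 0.630 CPM (log2 difference 0.87, adjusted p = 0.0384). Ccl17 lost its pass in 12 of 21 omissions of a single mouse and without the 4 libraries with Ddx3y reads, where the 3 lower genes still passed. Of 16 chemokine receptors 0 passed. Without PS/E2H replicate 3, 1 of them was higher and 1 lower, and with DESeq2 1 was higher. Of 25 genes of APOE receptors and lipid transport 0 passed (median -0.0903). In that list 2 were lower without PS/E2H replicate 3, 1 was lower with DESeq2 and 1 was higher in parental mice alone. Of 28 genes of cholesterol synthesis and its control 1 was higher and 1 lower. Pmvk, of the mevalonate pathway, had 32.3 to 43.3 CPM against 25.3 to 36.2 CPM (log2 difference 0.30, adjusted p = 0.0208), and Hsd17b7, of late sterol synthesis, was lower (log2 difference -0.31, adjusted p = 0.032). Without the 4 libraries with Ddx3y reads 0 genes of this list passed.

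In the glial and immune lists, 0 genes passed of 26 of disease-associated microglia, 22 of complement, 16 of MHC class I, 10 of MHC class II, 33 of the type I interferon response and 30 of reactive astrocytes, against 4.68% of all genes. Reactive astrocyte genes had 4 lower without PS/E2H replicate 3 and 3 lower with DESeq2, and complement had 1 higher in parental mice alone. Under each of these 2 settings complement had 1 higher and 1 lower, MHC class I 1 lower and the interferon response 1 higher. The median log2 difference was 0.211 in parental and -0.515 in PS19 mice for MHC class II, 0.186 and -0.303 for disease-associated microglia, and -0.272 and 0.270 for the interferon response. Trem2, the lipid-sensing receptor of microglia, had 11.2 to 38.1 CPM against 11.3 to 55.3 CPM (log2 difference -0.13, SE 0.127). Of 16 homeostatic microglial genes Selplg passed, 0.25 higher (adjusted p = 0.0409). The list as a whole leaned the other way, with 4 of the 16 positive and a median of -0.142. That median was 0.0531 in parental and -0.283 in PS19 mice. With DESeq2 2 of the list passed higher and 3 lower. Of 24 genes of myelin and oligodendrocytes Pdgfra, which marks their precursors, passed at -0.17 (adjusted p = 0.0492). Selplg lost its pass in 13 and Pdgfra in 17 of 21 omissions of a single mouse, and both lost it without the 4 libraries with Ddx3y reads. In bulk tissue fewer cells of a type and less RNA per cell cannot be told apart.

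At the vessels, 3 of 23 genes of endothelial cells and pericytes were lower and 0 higher, with a median of -0.186, against 1.60% of all genes lower. Slco1a4 and Abcb1a, transporters of the blood-brain barrier, had 34.1 to 46.6 CPM against 42.2 to 63.4 CPM (log2 difference -0.35, adjusted p = 0.00373) and 22.8 to 33.7 against 26.3 to 44.5 CPM (-0.30, adjusted p = 0.0376). Rgs5, a pericyte marker, had 70.4 to 94.9 CPM against 81.5 to 110 CPM (-0.25, adjusted p = 0.032). The arms overlapped for all 3 genes. Abcb1a lost its pass in 10 and Rgs5 in 6 of 21 omissions of a single mouse, and Slco1a4 in 0. The list held 1 lower gene without the 4 libraries with Ddx3y reads, without E2H replicate 2 and PS/E2H replicate 2, or with the short-minus-long covariate, and 0 in PS19 mice alone. Of 30 genes of synaptic vesicles and release, Vamp1, a vesicle fusion protein, had 274 to 333 CPM against 195 to 290 CPM (log2 difference 0.34, adjusted p = 0.00388), and Cplx1, its partner complexin, 773 to 939 against 654 to 846 CPM (0.21, adjusted p = 0.0171). Of these 1 passed without the 4 libraries with Ddx3y reads and 0 with the short-minus-long covariate.

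Markers of neighbouring tissue were examined in the same way. Of 15 choroid plexus markers Tmem72 was lower (log2 difference -0.78, adjusted p = 0.0285), 1 of the 15 had a positive difference, and the summed list was 479 to 931 CPM against 458 to 1310 CPM. Of 12 markers of leptomeningeal fibroblasts Foxc1 was lower (log2 difference -0.50, adjusted p = 0.0364), 0 of the 12 had a positive difference, and the sums were 101 to 320 against 163 to 402 CPM. The medians of these lists were -0.243 and -0.304, and their part in the vessel genes was not tested. Without the 4 libraries with Ddx3y reads 0 genes of either list passed. Of 7 red blood cell, 6 pituitary, 12 striatal and 14 hypothalamic markers 0 passed, nor did any of 22 immediate early genes or 16 genes of the glucocorticoid and fasting response. The glucocorticoid and fasting list leaned higher, with 13 of the 16 positive and a median of 0.287. That median was 0.144 in parental mice, 0.164 in PS19 mice and 0.298 with the short-minus-long covariate. Of this list 3 passed higher in parental mice alone, 2 without PS/E2H replicate 3 and 0 in PS19 mice alone. The median of the pituitary markers was -1.66, and 0.0637 in PS19 mice, where 3 were tested. Prl, the defining pituitary hormone, had a median of 0 CPM in both arms and a highest value of 1.49 CPM in the APOE2 arm and 6.29 CPM in the other.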

How the data were processed

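Forebrain RNA of 21 mice in 6 groups was sequenced from stranded poly(A) libraries by a service company. Per the methods, Cutadapt-trimmed reads went through HISAT2 (GRCm38.p5 per the labels), StringTie and ballgown; tool versions, and how counts were taken from StringTie, are not given in the sources used here. The authors deposited whole-number counts per gene without normalization for 55401 genes, and FPKM values scaled for length and depth for the 37538 genes with a count. Columns were matched to mice by name, and 0 were left unmapped.

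Counts of all 21 mice were fitted with edgeR 4.0.16 in R 4.3.3 (TMM, filterByExpr with a minimum count of 10 and total of 15, quasi-likelihood test) with the APOE2 arm and the tau transgene as terms. Passed means a Benjamini-Hochberg adjusted p under 0.05, and called means also a fold of at least 2, the study's own limits. The SE is the absolute log2 difference over the square root of F. CPM are TMM-normalized. The same test was run within parental and PS19 mice, with an interaction, and with 3 lines. On simulated counts of this comparison over 22305 genes, 88% of 100 genes changed by 1 on the log2 scale and 57% of 100 changed by 0.4 were recovered. Each gene was simulated on its own, without a shift shared across a library such as the short-minus-long level, so recovery under such a shift is not known. A fold against an arm with no library above 3 counts was computed against 3 counts per library and is a lower bound. A library's short-minus-long level is the mean log2 level of the shortest minus that of the longest of 3 exon length classes of equal size. Positions, symbols and sequences are from GENCODE M21 (55141 of 55401 genes). Windows of 50 bases were compared between the transcripts of all genes.

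Named genes are, in each direction, the 15 called genes with assigned names and the 2 predicted genes with the smallest adjusted p, up to 4 passing members of each of 26 lists, 5 check genes and genes the study names; others are said to be named after their values were seen. Not all genes of the rule are printed. Of 623 list symbols 622 matched. The comparison and the gene lists were chosen with earlier results of these data known. Mice were assigned to the arms by group label alone. Alternatives were RLE normalization, no filter, DESeq2 1.42.0, limma 3.58.1 on log2(FPKM + 1) or log2(FPKM + 0.1), other designs, a surrogate variable (sva 3.50.0), an Xist covariate, a test against a fold of 2, a replicate block and each mouse left out. The labels name separate mice as replicates. Figures were drawn with matplotlib 3.10.9. Human transcripts were not used here, nor were the values of the authors' own comparisons, though some named genes were taken from those comparisons.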

Additional observations from a re-analysis of the deposited data

Results flagged for a closer look

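Of 195 groups of 4 mice examined over 66 quantities, 18 (9.23%) held a mouse whose gap to the nearest of the others took up most of the group's range. The limit used marks about 1 in 20 groups of independent, normally distributed values. These quantities are not all independent, since the first Nnt entry and the Nnt sum are both among them, and some lie near 0. The 9.23% therefore cannot be read as an excess over that rate. In PS/E2H mice, Pglyrp1 was 11.67 CPM in replicate 4 (others 4.64 to 5.72) and Lgals4 3.254 CPM in the same mouse (others 2.03 to 2.19). Replicate 2 of that group had the lowest Nnt, 30.86 CPM for the first entry and also for the sum of both (others 35.5 to 36.4). The same mouse had the highest Pmvk, 42.52 CPM (others 32.3 to 33.8), and the highest Ddx3y, 43.01 CPM (others 0 to 0.253). The total count of PS/E2H replicate 1 was 70384215 (others 59265459 to 60655306), and the normalization factor of replicate 3 was 1.02 (others 0.986 to 0.988).

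In PS/E3H mice, 9330104G04Rik was 0.05703 CPM in replicate 4 (others 1.12 to 1.23), and Rpl15-ps2, a ribosomal protein pseudogene, was 2.88 CPM in that mouse (others 0.446 to 0.688). Vsx1, a homeobox gene, was 0.2527 CPM in replicate 1 (others 0.589 to 0.599). In PS/E4H mice, replicate 2 was high for Rps3a3 (1.648 CPM, others 0.970 to 1.07), Selplg (37.96 CPM, others 35.7 to 35.8) and Alb (0.2471 CPM, others 0). Replicate 1 was high for the antisense gene Sorbs2os (1.552 CPM, others 0.626 to 0.780), and replicate 4 for Phtf1os (7.777 CPM, others 2.49 to 3.20). Replicate 3 was low for Ube2c (0.3412 CPM, others 0.695 to 0.762) and high for Capn11 (2.031 CPM, others 0 to 0.330). Groups of 3 mice were not examined.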

How the results depend on the processing

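In the pooled comparison, no named gene that passed changed sign under the other settings. Capn11, Ddx3y, Xist and Mapt, which did not pass, changed sign under at least 1, and so did the medians of several lists, among them MHC class II and disease-associated microglia. The 67 called genes became 66 with RLE normalization, 54 without a filter, 51 with DESeq2, 50 with limma on log2(FPKM + 0.1), 78 with 3 lines, 90 with 6 group means, 61 with a surrogate variable and 75 with Xist as covariate, sharing 41 to 66 genes with the 67. They became 18 with limma on log2(FPKM + 1) and 26 when tested against a fold of 2. Of alternatives chosen after seeing the data, leaving out the 4 libraries with Ddx3y reads gave 44, the short-minus-long covariate 37, and leaving out E2H replicate 2 and PS/E2H replicate 2 together 47. With each mouse left out in turn there were 48 to 128, the latter without PS/E2H replicate 3, and 42 of the 67 were called each time. The 58 in parental mice became 17 with limma on log2(FPKM + 1), and 39 to 94 with a mouse left out. The 29 in PS19 mice became 57 with DESeq2, 10 with that limma fit, and 24 to 77 with a mouse left out. The interaction passed for 90 genes with DESeq2 and for 0 to 1 with a mouse left out. All 1070 passing genes became 2284 with DESeq2 and 347 without a filter.

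The 19 calls of the chromosome 4 run became 6 with limma on log2(FPKM + 1), 9 in PS19 mice only and 11 against a fold of 2, and 16 to 19 with mice left out. The 51 oxidative phosphorylation genes became 19 without a filter, 26 and 27 with limma on log2(FPKM + 1) and log2(FPKM + 0.1), 25 in parental mice, 0 in PS19 mice, 0 against a fold of 2, and 0 without the Ddx3y libraries, with the short-minus-long covariate or without the 2 APOE2 libraries. With a mouse left out they numbered 2 to 70, and 14 of the 21 omissions moved the count by over 1.5 times. The 21 ribosomal protein genes became 2, 6 and 7 under the same filter and limma settings, 47 with DESeq2, 49 with 6 group means, 0 in PS19 mice, 0 against a fold of 2, 0 under the 3 added settings, and 0 to 55 with a mouse left out. The cause of these changes was not tested.

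The labels' replicate numbers did not pair the mice: deviations of same-numbered mice correlated between -0.0791 and 0.0235 over 14 pairs, and 3 of 21 mice correlated best with their own number. A replicate block gave 69 calls in all mice, 38 in parental and 23 in PS19 mice, 0 interactions, and 45, 17 and 19 for the 3 gene groups.

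Reads shared among near-identical genes were divided as the authors' counting divided them. This limits the chromosome 4 run, the chromosome 14 pair, Nnt, the pseudogenes and some calls of chromosome 7. With 7 mice in the APOE2 arm, leaving out 1 mouse moved the number of passing genes to between 145 and 2806.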
